A study of Mus musculus with 12 samples.

Results

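The tripartite motif (TRIM) genes of mouse skin were followed over 4 groups of samples. Members were all genes whose symbol in the platform annotation begins with Trim and a number, leaving out pseudogenes and probe sets that carry several gene symbols. This rule found 58 genes, each with 1 probe set, among 19938 genes in all. Another 8 Trim symbols (Trim5, Trim17, Trim30b, Trim43a, Trim43b, Trim43c, Trim60 and Trim61) appear only on probe sets shared with other genes and are not members. Skin was biopsied from female Balb/c mice, and RNA of 12 samples, 3 in each group, was hybridised to Affymetrix Mouse Gene 1.0 arrays. One group was left untreated, and the others were taken 1.5 h, 6 h or 24 h after RNAdjuvant, a vaccine adjuvant made of non-coding RNA and a cationic peptide, was injected into the dermis at 25 mg as labelled, a unit that could not be checked here. No group given the needle or the carrier alone was analysed here, so the injection and the adjuvant cannot be told apart.

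TRIM proteins typically join a RING domain, which transfers ubiquitin, to B-box and coiled-coil domains and to a variable end that binds the target. Several act in innate immunity: some attach ubiquitin to RNA sensors or their adaptors, some bind viral capsids or antibody-coated virus, and some restrain inflammatory signalling. Many of these genes are themselves induced by interferon, through promoter elements bound by interferon-activated factors. Other members work in striated muscle, in chromatin repression or on microtubules.

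Medians of the 12 arrays, in log2 intensity, ran from 5.53 to 5.76, and over all probe sets 2 arrays from one group had r = 0.98 to 0.987. Of the skin markers checked, the 5 measured epidermal keratin and envelope genes averaged 11.76 to 12.12 in every library. Libraries differed in other tissue. Glycam1, a gene of lymph node vessels, measured 11.38 in 1.5 h replicate 1 and 10.88 in 6 h replicate 1, against 3.87 to 4.46 in the other 10. Myl2, a myosin light chain of muscle, measured 9.33 to 10.57 in 1.5 h replicates 1 and 2 and 24 h replicates 1 and 3, against at most 6.88 in the other 8. Other muscle markers were mixed in 24 h replicate 3. There Myh1, Myh4, Atp2a1 and Pygm lay below all untreated values, Myl1, Mylpf, Tnnt3 and Tnni2 above them, and Acta1 and Ckm within their range. Glandular markers averaged 5.66 to 5.94 in untreated skin, 7.77 to 8.99 at 1.5 h, 5.49 to 8.54 at 6 h and 7.61 to 8.19 at 24 h. Without both Glycam1-high libraries, 1, 11 and 7 members were called against untreated skin at 1.5 h, 6 h and 24 h, of which 1, 11 and 6 were among those called with all 12 libraries.

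At 6 h, 10 of the 58 TRIM genes were higher than in untreated skin and 2 were lower (limma, Benjamini-Hochberg adjusted p under 0.05 over all genes). At 24 h, 6 were higher and 0 were lower. At 1.5 h, 0 were higher and 1 was lower. The 10 risen genes were Trim30d, Trim30a, Trim34a, Trim12c and Trim6 of a gene cluster on chromosome 7, and Trim21, Trim25, Trim14, Trim56 and Trim26 elsewhere. Among all 19938 genes, 6.09% were called at 6 h, 3.36% at 24 h and 2.2% at 1.5 h. The corresponding shares of TRIM genes were 20.7%, 10.3% and 1.72%. In the upward direction alone, 17.2% of members against 3.38% of all genes were called at 6 h, and 10.3% against 2.55% at 24 h. In the downward direction, 2 members against 2.71% of all genes were called at 6 h, 0 against 0.808% at 24 h and 1 against 1.59% at 1.5 h. Counting only whether the 3 values of each group overlapped, 13 members lay wholly above untreated skin at 6 h and 11 wholly below, beside 11.4% and 19.3% of all genes. At 24 h these counts were 11 and 7, beside 10.9% and 12.4%, and at 1.5 h 7 and 9, beside 11.8% and 13.3%. The family median moved little: its median log2 difference was 0.03 at 6 h, beside -0.04 for all genes. In whole tissue, more cells of a type and more RNA per cell cannot be told apart.

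**Figure D1:**
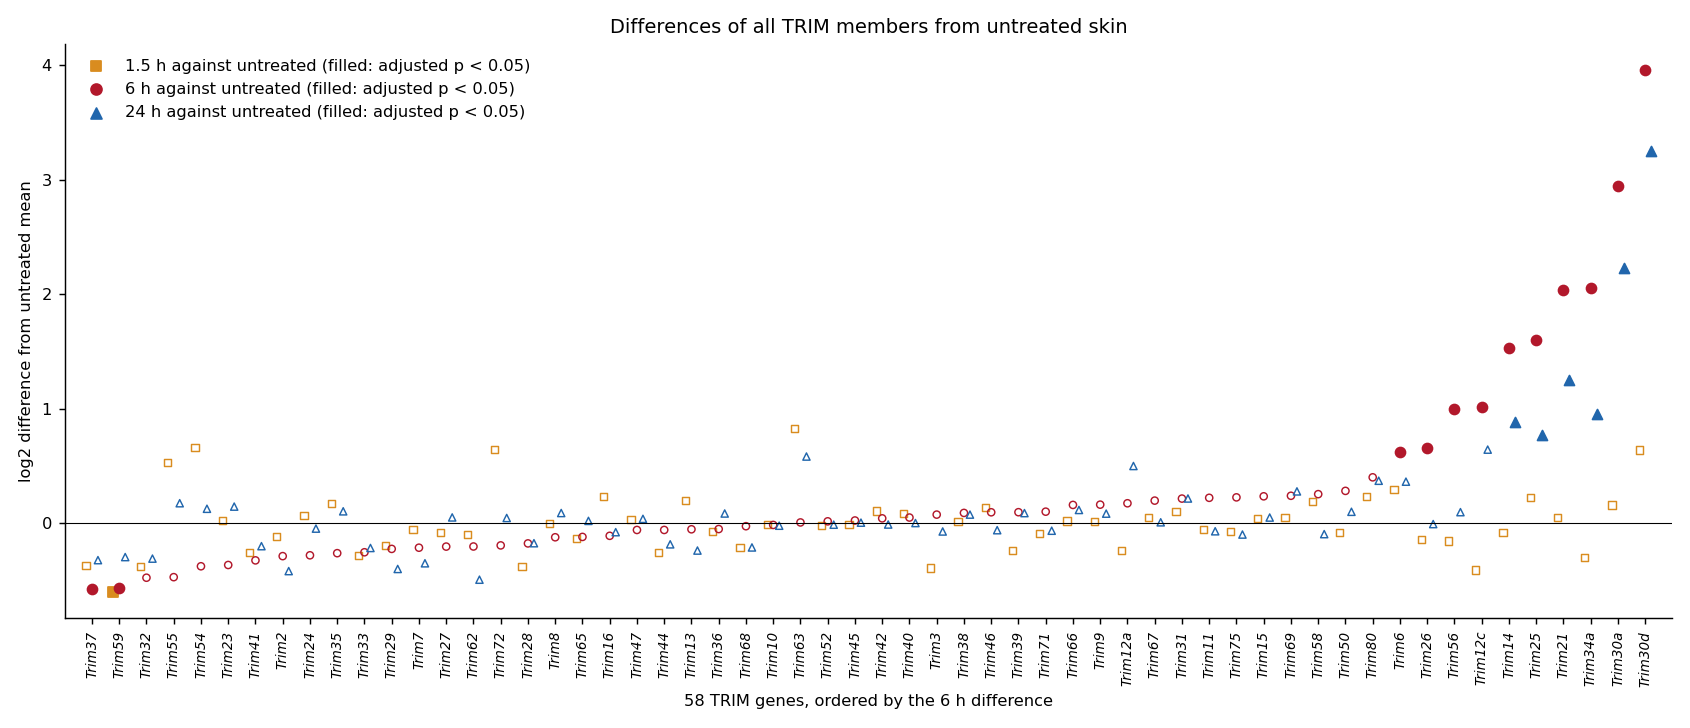
Log2 difference of each of the 58 TRIM genes from the untreated mean (vertical axis) at 1.5 h, 6 h and 24 h, with genes ordered along the horizontal axis by the 6 h difference. Filled symbols passed an adjusted p of 0.05: 10 genes stand above 0.6 at 6 h, 2 lie below -0.5, and the remaining 46 open circles lie between -0.47 and 0.40.

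The promoters of the risen genes are shown because 6 of the 9 with a listed window hold the core of an interferon-stimulated response element (ISRE), the site through which type I interferon acts. The sequences, from RefSeq on GRCm38.p6, run 5′ to 3′ on the strand of the gene from 180 bases before the annotated start to 30 after it. Capitals mark a match on either strand to the ISRE core searched, which is GAAA, 2 bases of any kind and GAAA again. Trim12a, a close relative of Trim12c, is included although it did not pass the test.
Trim30d (chr7:104507820-104508029, minus strand): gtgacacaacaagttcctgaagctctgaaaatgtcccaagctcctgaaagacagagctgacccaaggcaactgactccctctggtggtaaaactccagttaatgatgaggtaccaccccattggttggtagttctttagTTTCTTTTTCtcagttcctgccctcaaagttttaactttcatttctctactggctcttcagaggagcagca
Trim30a (chr7:104465164-104465373, minus strand): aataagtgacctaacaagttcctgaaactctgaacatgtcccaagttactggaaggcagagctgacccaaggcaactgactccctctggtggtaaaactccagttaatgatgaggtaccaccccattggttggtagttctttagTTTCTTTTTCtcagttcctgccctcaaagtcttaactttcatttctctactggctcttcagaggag
Trim34a (chr7:104244277-104244486, plus strand): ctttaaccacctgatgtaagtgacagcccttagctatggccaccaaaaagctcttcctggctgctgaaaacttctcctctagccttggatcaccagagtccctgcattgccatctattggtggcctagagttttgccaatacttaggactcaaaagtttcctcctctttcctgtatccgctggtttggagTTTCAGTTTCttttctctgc
Trim12c (chr7:104353320-104353529, minus strand): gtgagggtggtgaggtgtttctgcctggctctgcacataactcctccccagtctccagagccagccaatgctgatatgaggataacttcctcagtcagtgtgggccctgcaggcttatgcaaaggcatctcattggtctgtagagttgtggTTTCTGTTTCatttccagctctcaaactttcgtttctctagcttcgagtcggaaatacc
Trim12a (chr7:104315466-104315675, minus strand): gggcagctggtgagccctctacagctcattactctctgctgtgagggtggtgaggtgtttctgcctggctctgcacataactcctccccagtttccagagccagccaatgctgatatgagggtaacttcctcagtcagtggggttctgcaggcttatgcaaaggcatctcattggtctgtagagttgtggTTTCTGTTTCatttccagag
Trim21 (chr7:102565453-102565662, minus strand): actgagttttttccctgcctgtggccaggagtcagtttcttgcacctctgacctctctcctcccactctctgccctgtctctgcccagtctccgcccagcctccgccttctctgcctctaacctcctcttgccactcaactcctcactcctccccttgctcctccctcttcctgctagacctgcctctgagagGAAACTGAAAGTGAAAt
Trim26 (chr17:36836966-36837175, plus strand): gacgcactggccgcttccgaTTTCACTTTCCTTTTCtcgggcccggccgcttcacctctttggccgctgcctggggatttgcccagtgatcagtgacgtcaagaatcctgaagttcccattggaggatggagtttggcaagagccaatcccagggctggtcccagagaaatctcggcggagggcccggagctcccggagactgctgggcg
Trim30a has a second listed start elsewhere in the gene (window not shown), with a match of its own that begins 2 bases after that start. Trim21 and Trim26 each hold 2 overlapping matches, which run together in capitals.

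In windows of 300 bases (250 before the start and 50 after it), available for 46 of the 58 members, the ISRE core was found in 6 of the 9 members higher at 6 h (66.7%) and in 2 of the 37 other members (5.41%), Trim12a and Trim2. It was found in 3.99% of all 27025 genes with a window in the table. Among all genes tested on the array, 16.7% of those higher at 6 h and 3.44% of the rest held it. The match began 41 bases before the start in Trim30d, 36 before it in Trim30a and 29 before it in Trim12c, but 10 and 13 bases after it in Trim34a and Trim21, and 160 before it in Trim26. The windows of Trim30a (first start shown) and Trim30d were 93.6% identical over 295 bases, so they are not independent examples. Those of Trim12c, higher at 6 h, and Trim12a, counted among the other members, were 72.3% identical over 260 bases. Risen members without these letters in the window were Trim25, Trim56 and Trim6, and Trim14 had no listed window. The core of the gamma-activated site, TTCNNNGAA, which is its own reverse complement, was found in 0 of the 9 and in 5 of the 37, beside 9.55% of all genes. A match is a sequence feature only, and binding was not measured here.

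**Figure D2:**
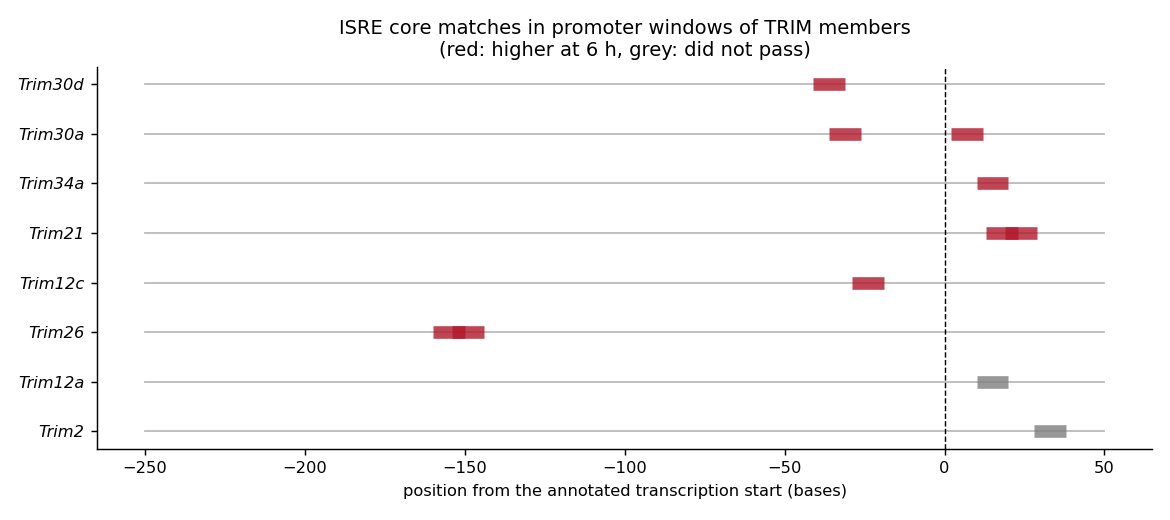
Position of each ISRE core match (bars) in bases from the annotated transcription start (dashed line) in the 300-base windows (grey lines) of the 8 TRIM genes that hold one. Red marks the 6 genes higher at 6 h and grey the others. Trim30a has 2 listed starts, drawn on 1 line. All matches lie within 41 bases of a start except those of Trim26.

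Trim30d and Trim30a, which rose most at 6 h, belong to the chromosome 7 cluster that also holds Trim5. Outside this cluster, Trim21 rose about as much as its member Trim34a. Trim21, Trim25 and Trim14 rose more than the cluster members Trim12c and Trim6. In the RefSeq order of protein-coding genes, 11 lie from Trim6 to Trim30d, of which 10 have a Trim symbol and 6 were measured alone. The cluster includes the rodent relatives of the capsid-binding retrovirus restriction factor TRIM5. Of the 6 measured, 5 rose at 6 h and 1, Trim12a, did not pass, with a median log2 difference of 1.53. At 24 h 3 rose and 3 did not pass, with a median of 0.80. Of all genes, 3.38% were called higher at 6 h and 2.55% at 24 h. At 1.5 h 0 passed, against 0.612% of all genes called higher and 1.59% lower, and the median was -0.04.

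Trim30d (probe set 10566366) measured 5.2, 4.84 and 5.69 in untreated skin, 6.69, 5.64 and 5.32 at 1.5 h, 9.14, 9.28 and 9.17 at 6 h and 8.48, 8.71 and 8.29 at 24 h. It rose 15.5-fold at 6 h (log2 difference 3.96 ± 0.29 SE, adjusted p = 7.17e-07) and 9.53-fold at 24 h (adjusted p = 9.23e-06). All values at 6 h and 24 h lay above all untreated and 1.5 h values. Trim30a (probe set 10566358), whose product limits Toll-like receptor signalling by promoting loss of the TAK1 partners TAB2 and TAB3, measured 7.58, 7.4 and 8.1 untreated, 8.49, 7.61 and 7.46 at 1.5 h, 10.67, 10.67 and 10.57 at 6 h and 9.89, 9.99 and 9.9 at 24 h. It rose 7.68-fold at 6 h (2.94 ± 0.23 SE, adjusted p = 1.47e-06) and 4.70-fold at 24 h (adjusted p = 3.56e-05). In both genes the 1.5 h values overlapped the untreated ones, and 1.5 h replicate 1, a library high in Glycam1, held the highest of them. Both were lower at 24 h than at 6 h without overlap, by log2 differences of -0.70 (95% interval -1.32 to -0.09) for Trim30d and -0.71 (-1.20 to -0.22) for Trim30a, which did not pass (adjusted p = 0.187 and 0.104).

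Trim34a (probe set 10555862) measured 6.33, 6.57 and 6.46 untreated, 6.36, 5.89 and 6.22 at 1.5 h, 8.57, 8.79 and 8.15 at 6 h and 7.52, 7.6 and 7.09 at 24 h. It rose 4.14-fold at 6 h (2.05 ± 0.18 SE, adjusted p = 4.59e-06), stood 1.93-fold above untreated at 24 h (adjusted p = 0.00775), and fell from 6 h to 24 h, to 0.467-fold of the 6 h level (adjusted p = 0.00615). All values at 6 h lay above all at 24 h, and these above all earlier ones. Trim12c (probe set 10566346) measured 7.15, 6.81 and 7 untreated, 6.51, 6.64 and 6.6 at 1.5 h, 8.2, 8.3 and 7.51 at 6 h and 7.86, 7.5 and 7.53 at 24 h. It rose 2.02-fold at 6 h (1.02 ± 0.18 SE, adjusted p = 0.00378). At 24 h its log2 difference of 0.64 missed the threshold (adjusted p = 0.0755), although all 3 values lay above the untreated ones, and it was called without 6 h replicate 3 (adjusted p = 0.0114) and under 4 other alternatives (0.0353 to 0.0484). Its 3 values at 1.5 h lay below all untreated ones (log2 difference -0.41, adjusted p = 0.257).

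Trim6 (probe set 10555848), whose product builds unanchored ubiquitin chains that activate the kinase IKK-epsilon, measured 4.5, 4.52 and 4.3 untreated, 4.7, 4.71 and 4.79 at 1.5 h, 4.92, 5.5 and 4.77 at 6 h and 4.85, 4.93 and 4.62 at 24 h. Its 1.54-fold rise at 6 h (0.62 ± 0.16 SE, adjusted p = 0.0378) was the smallest of the 10. The call was lost without any 1 of untreated replicates 1, 2 and 3, 1.5 h replicates 2 and 3, 6 h replicate 2 and 24 h replicate 1 (adjusted p = 0.0504 to 0.141), and without both Glycam1-high libraries (0.0511). It was also lost after quantile normalization (0.0905), which left 9 members higher at 6 h, and in a fit of only the groups compared (0.0892). Trim12a was low, at 2.99, 3.46 and 3.2 untreated and 3.94, 2.91 and 3.33 at 6 h (log2 difference 0.17, adjusted p = 0.65). At 24 h its values of 3.63, 3.6 and 3.92 lay above all untreated values but did not pass (0.50, adjusted p = 0.259). The table has no detection call, so a low value is not read as absent. Some members of this cluster are close copies of each other, and how far probes of one respond to another was not tested.

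**Figure D3:**
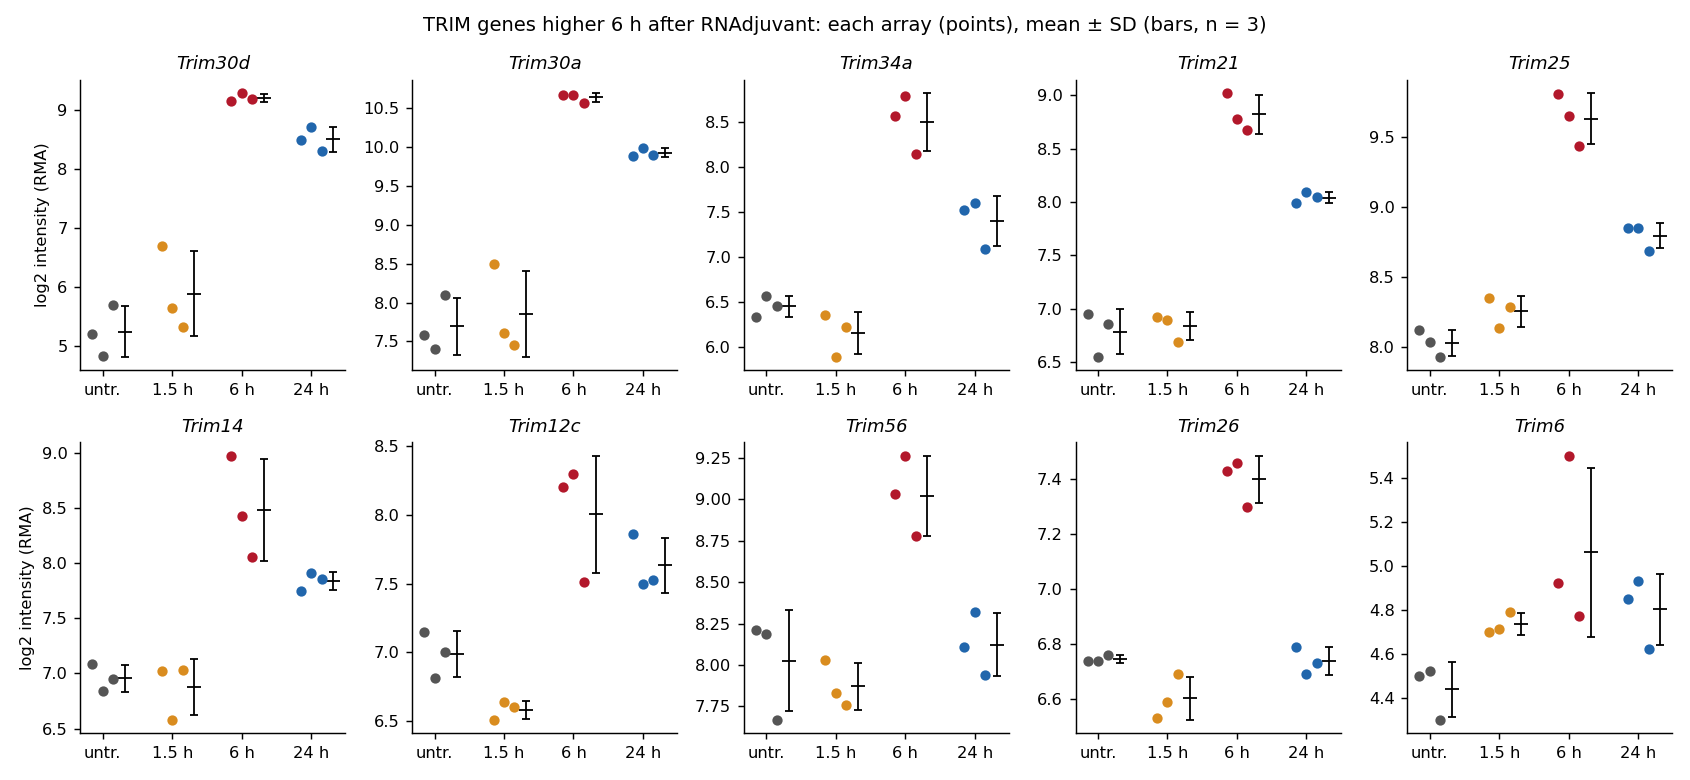
Log2 intensity on each array (points) in untreated skin and 1.5 h, 6 h and 24 h after RNAdjuvant for the 10 TRIM genes higher at 6 h, with mean ± SD of 3 arrays (bars) and a separate vertical scale per gene. In every panel the 3 values at 6 h lie above the 3 untreated values, and in Trim56 and Trim26 the values at 24 h overlap the untreated ones.

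Of 21 members with reported roles in nucleic acid sensing, antiviral defence or control of inflammation, 5 rose at 6 h, 0 fell and 16 did not pass. Their median log2 difference was 0.09, beside -0.04 for all genes, and at 24 h 3 rose and 18 did not pass. Shares of all genes called were 3.38% higher and 2.71% lower at 6 h, and 2.55% higher and 0.808% lower at 24 h. Trim25 (probe set 10380260), the ubiquitin ligase that activates RIG-I, measured 8.12, 8.04 and 7.93 untreated, 8.35, 8.14 and 8.29 at 1.5 h, 9.81, 9.65 and 9.44 at 6 h and 8.85, 8.85 and 8.69 at 24 h. It rose 3.04-fold at 6 h (1.60 ± 0.11 SE, adjusted p = 6.07e-07) and 1.70-fold at 24 h (adjusted p = 0.00117). At 1.5 h all 3 values already lay just above the untreated ones, by 0.23 on the log2 scale, which did not pass (adjusted p = 0.326). It fell from 6 h to 24 h by 0.84 on the log2 scale (adjusted p = 0.00231).

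Trim21 (probe set 10566144), a cytosolic antibody receptor that directs antibody-coated virus to the proteasome, measured 6.95, 6.55 and 6.86 untreated, 6.92, 6.9 and 6.69 at 1.5 h, 9.02, 8.78 and 8.67 at 6 h and 7.99, 8.09 and 8.05 at 24 h. It rose 4.09-fold at 6 h (2.03 ± 0.13 SE, adjusted p = 1.91e-07) and 2.38-fold at 24 h (adjusted p = 3.5e-05), and fell between these times (-0.78, adjusted p = 0.00654). The values at 1.5 h overlapped those of untreated skin. Trim14 (probe set 10512766), a partner of the mitochondrial adaptor MAVS, measured 7.09, 6.84 and 6.95 untreated, 7.02, 6.58 and 7.03 at 1.5 h, 8.98, 8.43 and 8.06 at 6 h and 7.75, 7.91 and 7.86 at 24 h. It rose 2.89-fold at 6 h (1.53 ± 0.19 SE, adjusted p = 0.000193) and 1.84-fold at 24 h (adjusted p = 0.0209). The 24 h call rested on 4 libraries: leaving out 24 h replicate 2 or 3, or replicate 2 or 3 of untreated skin, ended it (adjusted p = 0.0657 to 0.0904).

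Trim56 and Trim26 rose at 6 h, and their values at 24 h overlapped those of untreated skin. Trim56 (probe set 10534679), a ligase with reported action on STING and on RNA viruses, measured 8.21, 8.19 and 7.67 untreated, 8.03, 7.83 and 7.76 at 1.5 h, 9.03, 9.26 and 8.78 at 6 h and 8.11, 8.32 and 7.94 at 24 h. It rose 1.99-fold at 6 h (1.00 ± 0.17 SE, adjusted p = 0.0023) and fell from 6 h to 24 h (-0.90, adjusted p = 0.0126), a call lost without 6 h replicate 2 or 24 h replicate 3 (adjusted p = 0.0763 and 0.0688). Trim26 (probe set 10445033), of the major histocompatibility region, measured 6.74, 6.74 and 6.76 untreated, 6.53, 6.59 and 6.69 at 1.5 h, 7.43, 7.46 and 7.3 at 6 h and 6.79, 6.69 and 6.73 at 24 h. It rose 1.57-fold at 6 h (0.65 ± 0.09 SE, adjusted p = 0.000509) and fell again by 24 h (-0.66, adjusted p = 0.00248). The 95% interval of its difference from untreated at 24 h was -0.20 to 0.19. Its chromosome 17 neighbours among the members, Trim10, Trim15, Trim31, Trim39 and Trim40, did not pass at any time, with log2 differences from untreated between -0.24 and 0.24. Of all genes, 2.2%, 6.09% and 3.36% were called at 1.5 h, 6 h and 24 h.

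From 6 h to 24 h, 5 members fell (Trim34a, Trim56, Trim25, Trim21 and Trim26) and 1 rose (Trim23), beside 3.44% of all genes called in either direction, 1.41% lower and 2.03% higher. From 1.5 h to 6 h, 10 rose and 5 fell, beside 13.3% of all genes, 5.47% higher and 7.8% lower. From 1.5 h to 24 h, 7 rose (Trim30d, Trim30a, Trim34a, Trim12c, Trim21, Trim25 and Trim14) and 0 fell, beside 2.91% of all genes, 2.24% higher and 0.667% lower. Of these calls, that of Trim25 was lost without 1.5 h replicate 2 or 3 or 24 h replicate 1 or 2 (adjusted p = 0.0528 to 0.103). That of Trim14 was lost without 1.5 h replicate 2 (0.0778) or 24 h replicate 2 (0.063). Groups that did not overlap numbered 4 higher and 11 lower from 6 h to 24 h, beside 14.2% and 9.29% of all genes, 16 and 6 from 1.5 h to 6 h, beside 13.2% and 19.8%, and 11 and 7 from 1.5 h to 24 h, beside 9.82% and 9.12%. Trim30a, Trim30d and Trim14, still above untreated skin at 24 h, had log2 differences of -0.71, -0.70 and -0.65 from 6 h to 24 h that did not pass.

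The downward calls from 1.5 h to 6 h depended on libraries and scaling. They were 5 in all arrays (Trim23 and the 4 muscle members), 0 without both Glycam1-high libraries, 8 with arrays centred on their medians and 2 after quantile normalization, while 10 members were higher under each of these. Without both Glycam1-high libraries, 9 of those 10 were among the members called with all arrays, and Trim3 was lost. From 6 h to 24 h the split was 0 higher and 5 lower after quantile normalization, and 0 and 6 without both Glycam1-high libraries. Trim23, a ligase that also carries a GTPase domain, measured 7.37, 7.35 and 7.49 untreated, 7.48, 7.45 and 7.34 at 1.5 h, 6.95, 7.1 and 7.06 at 6 h and 7.57, 7.35 and 7.71 at 24 h. Its values at 6 h lay below those of all other groups, and it did not pass against untreated skin (-0.36 at 6 h, adjusted p = 0.0671). Its fall from 1.5 h to 6 h (-0.39, adjusted p = 0.0333) was lost without 1.5 h replicate 1 or 2 or any 6 h replicate (adjusted p = 0.0646 to 0.098). Its rise to 24 h (0.51, adjusted p = 0.0253) was lost without any 6 h replicate or 24 h replicate 1 or 3 (adjusted p = 0.053 to 0.108).

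Markers of white blood cells were read on the same arrays, since several of these genes are active in leukocytes. For comparison, 0.612%, 3.38% and 2.55% of all genes were called higher at 1.5 h, 6 h and 24 h. The mean of 4 measured monocyte and macrophage markers was 8.24 to 8.79 in untreated skin, 8.17 to 8.88 at 6 h and 8.91 to 9.29 at 24 h, and 0 of 4 passed at 6 h and 1 of 4, Adgre1, at 24 h. Itgam, Cd68 and Csf1r did not pass at 24 h (log2 differences 0.99, 0.55 and -0.22). Of 5 neutrophil markers 3 rose at 1.5 h and 1, Csf3r, at 6 h, and the list mean was 6.4 to 6.9 untreated, 7.36 to 8.17 at 1.5 h and 7.02 to 7.76 at 6 h. Of 5 T and NK cell markers 1 rose at 6 h, Gzmb, with a list mean of 5.69 to 5.73 untreated and 6.26 to 6.92 at 6 h. At 24 h the T and NK mean was 7.06 to 7.46, with 2 of 5 markers higher, Gzmb (log2 difference 4.94) and Ncr1 (1.98), and Cd3e, Cd3g and Cd8a not passing (-0.05, 0.35 and 0.64). The neutrophil mean at 24 h was 7.35 to 7.6, with 2 of 5 higher, Csf3r and Retnlg. S100a9, Cxcr2 and S100a8 did not pass at 24 h (1.37, 1.04 and -0.67). S100a8 also had negative differences at 1.5 h and 6 h that did not pass (-0.16 and -0.42). All 6 TRIM genes called at 24 h stood below their 6 h means, a fall that passed for Trim34a, Trim25 and Trim21. It did not pass for Trim30a, Trim30d and Trim14. The part of infiltrating cells in the TRIM values was not tested.

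Trim37 and Trim59 were the members that fell against untreated skin. Trim37 (probe set 10379998), a ligase of centrosomes and peroxisomes, measured 7.35, 7.16 and 7.19 untreated, 6.74, 7.01 and 6.85 at 1.5 h, 6.58, 6.59 and 6.81 at 6 h and 6.74, 6.87 and 7.12 at 24 h. It fell by 0.57 on the log2 scale at 6 h (SE 0.12, adjusted p = 0.0141), a call that ended when untreated replicate 1 (adjusted p = 0.0672) or 6 h replicate 2 (0.0597) was left out. Every treated value lay below every untreated one. Trim59 (probe set 10498620) measured 6.73, 6.86 and 6.69 untreated, 6.33, 5.98 and 6.16 at 1.5 h, 6.38, 6.06 and 6.14 at 6 h and 6.42, 6.35 and 6.62 at 24 h. It fell by 0.60 at 1.5 h (adjusted p = 0.0271) and by 0.57 at 6 h (adjusted p = 0.015). The 1.5 h call was lost without any untreated replicate, without 1.5 h replicate 2 or 3 (adjusted p = 0.0577 to 0.116) and with arrays centred on their medians (0.0641), and the 6 h call when replicate 2 of untreated skin or 6 h replicate 2 or 3 was left out (0.058 to 0.0694).

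The 4 striated muscle members were highest in libraries with high levels of muscle markers. Trim63, Trim55 and Trim54 encode the MuRF ligases of the sarcomere, and Trim72 encodes the membrane repair protein MG53. None passed against untreated skin, with log2 differences of 0.53 to 0.83 at 1.5 h, -0.47 to 0.01 at 6 h, and 0.05 up to 0.58 at the last time. Without 1.5 h replicate 3, Trim72 was called higher at 1.5 h (adjusted p = 0.026). From 1.5 h to 6 h all 4 fell, beside 7.8% of all genes called lower. Trim54 measured 7.89, 7.43 and 7.81 untreated, 8.38, 8.93 and 7.82 at 1.5 h, 7.17, 7.16 and 7.69 at 6 h and 8.36, 7.35 and 7.8 at 24 h (-1.04 ± 0.28 SE from 1.5 h to 6 h, adjusted p = 0.029). Trim55 measured 6.22, 5.95 and 6.37 untreated, 6.81, 7.05 and 6.28 at 1.5 h, 5.29, 5.76 and 6.08 at 6 h and 6.8, 5.96 and 6.3 at 24 h (0.499-fold, adjusted p = 0.02). In both, 1.5 h replicates 1 and 2 were the high libraries and 1.5 h replicate 3 lay within the range of untreated skin.

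Trim63 measured 7.24, 6.7 and 7.31 untreated, 7.88, 8.32 and 7.53 at 1.5 h, 6.7, 7.04 and 7.53 at 6 h and 7.94, 7.35 and 7.71 at 24 h (-0.82 ± 0.25 SE, adjusted p = 0.0434). Trim72 measured 6.9, 6.75 and 7.22 untreated, 7.99, 7.93 and 6.89 at 1.5 h, 6.64, 6.79 and 6.86 at 6 h and 7.38, 6.71 and 6.92 at 24 h (-0.84 ± 0.25 SE, adjusted p = 0.0444). The groups at 1.5 h and 6 h overlapped in Trim63 and did not in the other 3. Over the 3 libraries of 1.5 h, 11 skeletal muscle markers averaged 11.95, 12.12 and 11.27, and over those of 6 h 10.89, 11.09 and 11.45, with 1 of the 11, Myl1, lower at 6 h than at 1.5 h and 10 not passing. Of all genes, 7.8% were called lower from 1.5 h to 6 h. Among the 11, Myl2 had the widest range over 12 arrays, 6.27, and Myl1 the next, 1.43. In 24 h replicate 1, where the mean of the 11 was 12.01, all 4 genes had their highest value of the group. In 24 h replicate 3 that mean was 11.51, against at most 11.22 in untreated skin. Myl2 weighed heavily in it, at 9.33 against 4.65 to 5.06 untreated. Of the other markers in that library, Myh1, Myh4, Atp2a1 and Pygm lay below all untreated values and Myl1, Mylpf, Tnnt3 and Tnni2 above them. That mean is thus no clear sign of more muscle in 24 h replicate 3. In that library Trim54, Trim55 and Trim72 lay within the untreated range and Trim63 above it. The part of muscle content in these differences was not tested. Without 1.5 h replicate 1 or 2, or 6 h replicate 1 or 2, each of the 4 calls was lost (adjusted p = 0.0585 to 0.164). Those of Trim63 and Trim72 were also lost without untreated replicate 1 or 3, or 24 h replicate 3, and that of Trim72 without untreated replicate 2 or 6 h replicate 3 (0.0504 to 0.0757). Trim63 and Trim72 were lost as well with a trended and robust prior (0.0546 and 0.0577), in a fit of only the groups compared (0.0666 and 0.077) and after quantile normalization (0.0763 and 0.0725).

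**Figure D4:**
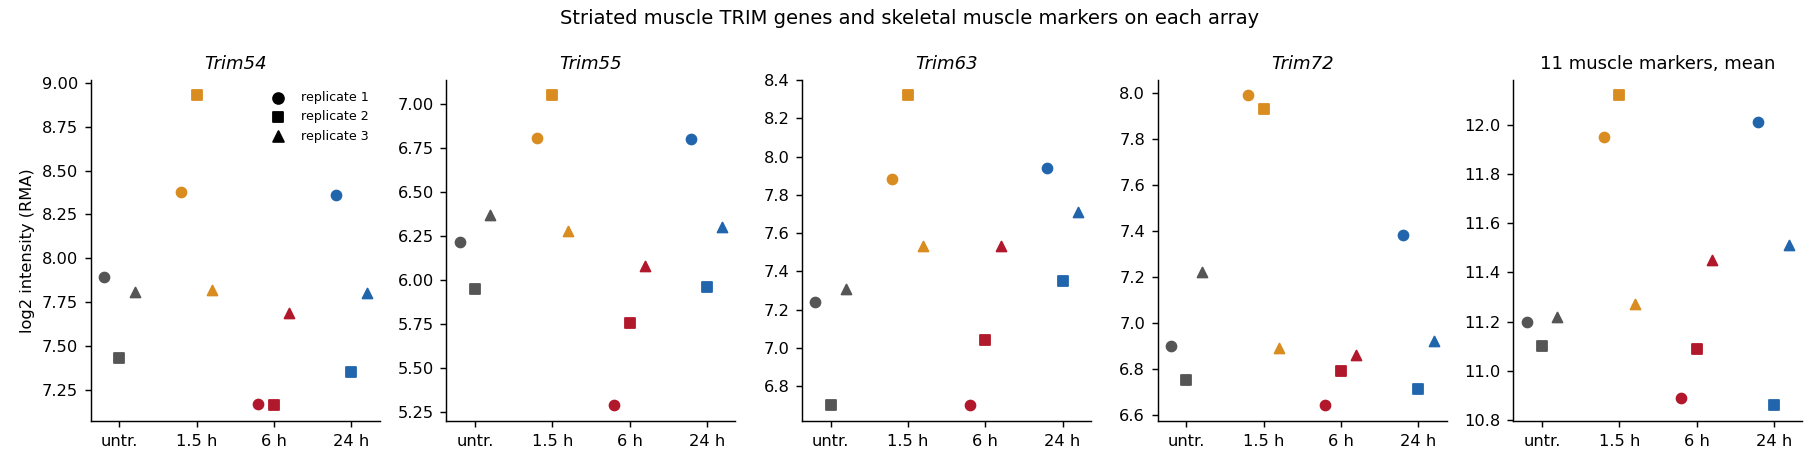
Log2 intensity on each array of the 4 striated muscle TRIM genes and, at the right, the mean of 11 skeletal muscle marker genes, with symbols for replicate numbers 1 to 3 within each group and a separate vertical scale per panel. The libraries with high marker means, 1.5 h replicates 1 and 2 and 24 h replicate 1 (11.95 to 12.12), hold the high values of the TRIM genes.

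The other classes had few or no calls, but lists this small cannot be told apart from the shares of all genes. Of the 4 TIF1 genes of chromatin repression (Trim24, Trim28, Trim33 and Trim66), 0 passed in any of the 6 comparisons. Of all genes, 2.2% to 13.3% were called in a comparison. Trim28, the corepressor KAP1, measured 8.02, 7.98 and 7.85 untreated, 7.59, 7.6 and 7.53 at 1.5 h, 7.71, 7.87 and 7.74 at 6 h and 7.83, 7.91 and 7.58 at 24 h. Its values at 1.5 h lay below all untreated ones (log2 difference -0.38, adjusted p = 0.0878), a difference called without 24 h replicate 3 (0.0495) or among genes at or above the median level (0.0483). Trim24 measured 6.94, 6.87 and 6.91 untreated, 7.1, 6.95 and 6.87 at 1.5 h, 6.45, 6.76 and 6.67 at 6 h and 6.91, 6.98 and 6.69 at 24 h (-0.28 at 6 h, adjusted p = 0.163). Trim33 measured 7.91, 7.91 and 8.07 untreated, 7.61, 7.77 and 7.68 at 1.5 h, 7.76, 7.75 and 7.63 at 6 h and 7.71, 7.87 and 7.66 at 24 h (-0.25 at 6 h, adjusted p = 0.151). In both, the 6 h values lay below all untreated ones. Of 4 members with an NHL repeat, 0 passed against untreated skin, beside 2.2%, 6.09% and 3.36% of all genes at 1.5 h, 6 h and 24 h. One of them, Trim3, measured 7.22, 7.21 and 7.11 untreated, 6.8, 6.87 and 6.7 at 1.5 h and 7.2, 7.46 and 7.11 at 6 h. Its 1.5 h values lay below all untreated ones, and its 6 h values overlapped the untreated ones. Its rise from 1.5 h to 6 h (0.47, adjusted p = 0.0231) was lost without 1.5 h replicate 1 or 3 or 6 h replicate 2 (adjusted p = 0.0554 to 0.106). It was also lost without both Glycam1-high libraries (0.0727).

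Trim29, a member abundant in keratinocytes, measured 11.08, 10.99 and 11.06 untreated, 10.52, 10.98 and 11.04 at 1.5 h, 10.6, 10.87 and 10.98 at 6 h and 10.54, 10.71 and 10.67 at 24 h. Its 24 h values lay below all untreated ones but did not pass (-0.40, adjusted p = 0.161, or 0.0427 without both Glycam1-high libraries). Of the 5 measured epidermal markers, Krt1 and Lor were lower at 24 h as well (-0.44 and -0.46), beside 0.808% of all genes called lower. Of the 3 measured members of germline-expressed clusters (Trim42, Trim75 and Trim80), 0 passed in any comparison, beside 2.2% to 13.3% of all genes. Their means over 12 arrays were 3.15 to 4.20. Other members that did not pass had differences as large as -0.47 at 6 h for Trim32 (adjusted p = 0.0999) and -0.49 at 24 h for Trim62 (adjusted p = 0.067). In all, 46 members did not pass at 6 h, 52 at 24 h and 57 at 1.5 h.

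Genes of the same class under other names were read beside them. Pml, which is also called Trim19 and forms nuclear bodies, rose 3.90-fold at 6 h (adjusted p = 1.65e-06) and 1.76-fold at 24 h (adjusted p = 0.00823), from 7.23, 6.96 and 7.18 untreated to 9.23, 9.24 and 8.79 at 6 h. Mid1, a microtubule-bound ligase, rose 1.62-fold at 6 h (adjusted p = 0.000401) from 7.4 to 7.44 untreated to 8.08 to 8.18, and its relative Mid2 fell by 0.50 on the log2 scale (adjusted p = 0.0297). Mefv, which encodes pyrin, had a log2 difference of 0.47 at 6 h that did not pass (adjusted p = 0.0982). Of 17 measured genes of the RNA sensing pathway around Trim25, 9 rose at 6 h and 8 did not pass, 6 rose at 24 h and 11 did not pass, and 1, Dhx58, rose at 1.5 h. The median of this list was 0.64 at 6 h. Of all genes, 3.38% were called higher at 6 h, 2.55% at 24 h and 0.612% at 1.5 h. Ddx58 (RIG-I), the substrate of Trim25, rose 6.75-fold and Rnf135 (Riplet), another ligase of RIG-I, rose 2.12-fold at 6 h (adjusted p = 1.44e-07 and 0.000139). Mavs, the adaptor of RIG-I, had a log2 difference of -0.29 at 6 h that did not pass (adjusted p = 0.17).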

How the data were processed

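Total RNA of 12 skin biopsies was measured on Affymetrix Mouse Gene 1.0 arrays. Per the submitters' processing notes, the authors ran RMA in Expression Console 1.1 (Affymetrix), and the deposited unit is log2 intensity. RMA is a method that corrects background, equalises array distributions and summarises probes, which can shrink small differences. The table holds 35556 probe sets, with values from 0.65 to 14.11. The platform annotation lists 23410 of them, 21789 with 1 gene symbol, 1621 with several, which named no gene, and the other 12146 stayed unnamed. For 999 genes with several probe sets, the one with the highest mean was kept. All 58 members had 1 probe set, and RefSeq gave the same symbol for 58 of 58 gene IDs.

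One limma 3.58.1 model (R 4.3.3) was fitted to all 19938 genes and 4 groups, with 8 residual and 5.24 prior degrees of freedom, giving 6 two-sided comparisons. Each comparison's p-values were adjusted over all genes (Benjamini-Hochberg), with calls under 0.05. Differences are log2, first-named or later group minus the other, and an error after ± is an SE of 3 against 3 arrays. Array number limits precision: an exact permutation test of 3 against 3 cannot go below p = 0.1. The labels call the samples biological replicates. Steps were tested on simulated data.

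Members and lists were chosen with earlier results of these data known. Values per array are given for members called against untreated skin and for 13 members fixed by role. Up to 6 other members with the largest differences that did not pass are named per comparison, and other genes come from fixed context and marker lists. Singled out with their values in view were Trim3, Trim42, Trim66, Trim75 and the chromosome 17 members, and the values per array of Trim12a and Trim23. Alternatives covered the replicate number, single libraries, scaling, variance model, weights, a filter on dim genes, probe set choice, the groups fitted and the threshold. Promoter windows of RefSeq (GRCm38.p6) were searched for both motifs on both strands.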

Additional observations from a re-analysis of the deposited data

Results flagged for a closer look

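Of 6 probe sets that list a Trim symbol with other genes, 3 had all values at 6 h above all untreated values, beside 11.4% of all tested genes; they name no gene here and entered no comparison. The probe set listing Trim5, Trim12c and Trim12a (10566333) differed by 0.96 on the log2 scale, with values of 6.03, 5.78 and 5.94 untreated and 6.8, 7.13 and 6.69 at 6 h. The probe set listing Trim5 and Trim12c (10601581) differed by 1.03, with 6.13, 5.82 and 6.05 untreated and 6.91, 7.15 and 7.03 at 6 h. The probe set listing Gm38525 and Trim30b (10566350) differed by 0.99, with 3.74, 3.64 and 3.67 untreated and 4.99, 4.91 and 4.13 at 6 h. These differences were not tested.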

How the results depend on the processing

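The replicate number gave no clear sign of pairing. Of 18 pairs of same-numbered samples in different groups, 4 had deviations from their group means that correlated above 0.1 (range -0.22 to 0.33). The median correlation was 0.046, beside 0.005 for pairs with different numbers. The best match in another group had the same number in 13 of 36 cases, and 0 of 12 samples matched their own number best in all other groups. With 3 samples in each group, this check cannot exclude pairing. With the replicate block, 1, 12 and 6 members changed at 1.5 h, 6 h and 24 h, as without it, and 13 rather than 15 from 1.5 h to 6 h, where Trim63 and Trim72 were lost (adjusted p = 0.0578 and 0.0529). Leaving out 1 library gave 0 to 2 changed members at 1.5 h, 9 to 13 at 6 h, 5 to 7 at 24 h, 9 to 15 from 1.5 h to 6 h, 4 to 7 from 6 h to 24 h and 5 to 8 from 1.5 h to 24 h. The lowest count from 1.5 h to 6 h came without 1.5 h replicate 1 or 6 h replicate 2, and that at 1.5 h without any 1 untreated replicate or 1.5 h replicate 2, and the highest there without 24 h replicate 3. With arrays centred on their medians 0 members changed at 1.5 h, among genes at or above the median level 2 did, and at an adjusted p under 0.01 0 did; that threshold left 9 from 1.5 h to 6 h. The cause was not tested. Centring moved the median difference of all genes from 0.02 to 0.12 at 1.5 h and from -0.03 to -0.17 from 1.5 h to 6 h. Of 47 calls of single members, 32 held in every fit without 1 library, and 0 changed direction under any alternative.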
